A study of Mus musculus with 70 samples.

Results

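The extracellular matrix and fibrosis genes described here were 39 genes taken by symbol from the 24423 genes with counts in mouse lung RNA: 14 collagen genes, 6 glycoprotein and matricellular genes, 7 elastic fibre genes, 3 crosslinking enzymes, 4 proteoglycans, and 5 metalloproteinase and inhibitor genes. All 39 had counts, and 38 had enough for testing at each time. The exception was Cthrc1, which encodes a secreted protein of collagen-producing cells and had 79 counts in all libraries together, with 0 in 30 of them.

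In lung, collagens I, III and V form the fibrils of the interstitium and airway walls, collagen IV forms the sheet of basement membranes, collagen VI makes beaded filaments beside the fibrils, and elastin on a fibrillin scaffold lets the tissue recoil. Lysyl oxidases crosslink collagen and elastin, matrix metalloproteinases cut matrix proteins, and tissue inhibitors of metalloproteinases (TIMPs) restrain that cutting. Matricellular proteins such as tenascin-C, thrombospondin-1 and periostin are made in larger amounts during repair, and inhaled crystalline silica is a known cause of lung fibrosis.

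The mice were males of the 129S-Slc26a4tm1Erg/AjgJ line, about 3 months old at exposure, bred from heterozygotes and either homozygous knockout (Pds-/-) or homozygous wildtype (Pds+/+) for Slc26a4, the gene of the anion exchanger pendrin. They breathed 15 mg/m3 of Min-U-Sil5 crystalline silica or air in whole-body chambers for 6 hours a day on 4 days, and a piece of lung was taken 1 day, 3 months or 9 months afterwards. The 4 groups of each time were knockout silica, knockout air, wildtype silica and wildtype air, with 6 mice in every group except the 2 wildtype groups of 9 months, which had 5 each. The knockout allele was in all cells, not in 1 cell type, and the labels name no batch.

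Libraries held 802478 to 5596318 gene counts, and the 39 genes together took 0.652% to 1.71% of them. Levels below are counts per 1e6 of the library total times its TMM factor (trimmed mean of M-values), called CPM. Slc26a4 RNA was lower in every knockout mouse than in any wildtype mouse under matched conditions, apart from air mice of 9 months. There the libraries labelled knockout air replicates 4 and 5 had 51.5 and 16.7 CPM and the other 4 knockout air mice 1.32 to 3.70 CPM, against 6.40 to 73.9 CPM in the 5 wildtype air mice. Markers of alveolar epithelium, 8 genes, summed to 8871 to 12710 CPM over all libraries, as lung should give. In whole lung, fewer cells of a type and less RNA per cell cannot be told apart.

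A few libraries stood apart. Knockout silica replicate 3 of 1 day differed most from its group over all genes, with a chi-square per degree of freedom of 12.5 to 14.3 against the other 5 mice and of 1.6 to 3.55 among those, and had the lowest share of Lars2 counts of all libraries (1.74%). Knockout silica replicate 3 of 3 months had the highest value of its group of 6 in 22 of the 38 tested genes and gave the 1.71% share. Among the 11 air mice of 9 months, the library labelled knockout air replicate 4 was the highest in 19 of the 38 genes, and it, the library labelled knockout air replicate 5 and wildtype air replicate 5 had 6554, 2985 and 7981 CPM of the macrophage gene Chil3, against 671 to 1079 CPM in the other 8. Results for single genes that rest on these mice are mostly given with and without them. Counts of the other gene lists and of markers include all of these mice.

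Promoter windows from RefSeq, on assembly GRCm38.p6, matched 24 of the 39 genes. The 250 bases before the start are printed for 4 genes that rose with silica in at least 1 comparison, 1 each from the TIMPs, proteoglycans, fibril collagens and matricellular proteins, all in windows without annotated exons. Each is written 5′ to 3′ on the strand of its gene, with capitals marking matches on either strand to 4 short motifs. These were the GC box, searched as GGGCGG, the element bound by the TATA-binding protein, searched as TATAAA and called the TATA box below, the Smad box that Smad proteins can bind, searched as CAGACA, and the CCAAT box, searched by the letters of its name. No match of 1 motif overlapped a match of another in these windows.
Timp1, chrX:20869916-20870165, plus strand: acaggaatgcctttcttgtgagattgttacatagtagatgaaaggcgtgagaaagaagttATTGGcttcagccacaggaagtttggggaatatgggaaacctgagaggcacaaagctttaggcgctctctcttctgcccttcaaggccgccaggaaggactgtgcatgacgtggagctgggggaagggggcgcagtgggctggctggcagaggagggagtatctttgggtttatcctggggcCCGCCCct
Vcan, chr13:89742513-89742762, minus strand: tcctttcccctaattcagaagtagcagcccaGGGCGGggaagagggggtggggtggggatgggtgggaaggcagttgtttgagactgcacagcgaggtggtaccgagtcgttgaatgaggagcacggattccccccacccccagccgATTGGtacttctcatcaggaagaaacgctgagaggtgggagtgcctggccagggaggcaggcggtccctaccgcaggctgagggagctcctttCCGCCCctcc
Col3a1, chr1:45311288-45311537, plus strand: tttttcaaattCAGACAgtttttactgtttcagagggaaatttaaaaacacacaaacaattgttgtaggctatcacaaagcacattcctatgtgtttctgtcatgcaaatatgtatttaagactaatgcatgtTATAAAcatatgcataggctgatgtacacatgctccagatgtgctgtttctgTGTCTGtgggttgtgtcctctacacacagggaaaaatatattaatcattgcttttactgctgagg
Tnc, chr4:64047016-64047265, minus strand: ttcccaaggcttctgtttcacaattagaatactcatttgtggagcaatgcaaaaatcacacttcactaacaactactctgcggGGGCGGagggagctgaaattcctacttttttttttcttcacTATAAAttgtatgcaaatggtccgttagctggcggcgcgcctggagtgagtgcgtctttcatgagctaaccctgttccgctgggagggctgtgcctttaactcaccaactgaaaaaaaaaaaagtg

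A GC box lay in a window of 17 of the 24 matched genes, beside 32.7% of all 32851 windows of the same length. A TATA box lay in 3 of the 24, beside 12.4%, a CCAAT box in 9, beside 33.8%, and a Smad box in 8, beside 17.1%. The AP-1 sequence TGANTCA, searched on both strands as well, lay in 1 of the 24, beside 6.75%, and in none of the 4 printed. Some genes have more than 1 window, and a match is a string of letters, not a measured binding site.

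Per kilobase of exon, Sparc, the collagen-binding glycoprotein osteonectin, had the highest level of the 39 genes in wildtype air lungs of 1 day, with 239 ± 21.5 CPM per kb (SD, n = 6 mice). Timp3, a TIMP that binds to the matrix, followed with 136 ± 10.7 CPM per kb, then the basement membrane chains Col4a1 with 131 ± 4.94 and Col4a2 with 126 ± 3.38 CPM per kb. Timp3 and Col4a1 lay within their spread of each other. Among the lowest were Timp1 with 3.49 ± 1.30, Vcan with 1.45 ± 0.25, Col6a5 with 0.50 ± 0.12 and Cthrc1 with 0.27 ± 0.24 CPM per kb. Timp1 therefore rested on few reads, a median of 10 counts per library and 0 in 2 libraries.

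At 1 day after exposure, silica raised the inhibitor Timp1, the proteoglycan Vcan, the glycoprotein Fn1 and the microfibril protein Mfap4 and lowered the inhibitor Timp2, while no collagen gene passed the test. This is the mean of the silica effects in knockout and wildtype mice, in which 5 of 38 genes passed an adjusted p of 0.05 in edgeR, 4 higher and 1 lower, beside 4.59% of all 12558 genes tested. In knockout mice alone 4 genes rose (1.93% of all genes passed), and in wildtype mice alone 1 rose (2.37%). The median log2 fold change of the 38 genes was 0.08, against 0.00 over all genes.

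Timp1 encodes a secreted inhibitor that blocks most matrix metalloproteinases. At 1 day its lowest, median and highest levels were 5.04, 7.03 and 14.7 CPM in knockout silica mice, against 0, 3.20 and 4.90 CPM in knockout air mice. In wildtype silica mice they were 2.98, 6.22 and 10.3 CPM, against 1.47, 2.88 and 4.52 CPM in wildtype air mice. The knockout silica and air mice did not overlap, and the wildtype ones did. The mean silica effect was a log2 fold change of 1.20 ± 0.24 (here and below ± after a log2 fold change is a standard error; adjusted p = 0.00124). It was 1.36 ± 0.35 in knockout mice (adjusted p = 0.0279) and 1.05 ± 0.34 in wildtype mice (adjusted p = 0.105). The knockout call was lost without any of 5 of the 24 libraries, among them knockout silica replicate 3 (1.25, adjusted p = 0.0614), in voom (adjusted p = 0.124), with the compared groups only (0.0602) and with all 70 libraries in 1 model (0.311), and the average call with all 70 (0.0639).

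Vcan, versican, is a large hyaluronan-binding proteoglycan of provisional matrix. Its lowest, median and highest levels were 22.0, 31.6 and 46.2 CPM in knockout silica mice and 14.8, 20.3 and 24.7 CPM in knockout air mice. They were 22.8, 36.7 and 39.55 CPM in wildtype silica mice and 14.3, 21.6 and 25.3 CPM in wildtype air mice. The groups overlapped in both genotypes. The log2 fold change was 0.69 ± 0.12 on average (adjusted p = 0.000116), 0.65 ± 0.17 in knockout mice (adjusted p = 0.0365) and 0.72 ± 0.16 in wildtype mice (adjusted p = 0.00538). Leaving out single libraries ended the knockout call for 9 of 24 libraries, with log2 fold changes of 0.515 to 0.74 over all 24. The lowest came without knockout silica replicate 3, whose 46.2 CPM was the highest of its group (adjusted p = 0.108). That call was also lost in voom (adjusted p = 0.222), with the compared groups only (0.085) and with all 70 libraries (0.0791).

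Fn1, fibronectin, the glycoprotein that bridges cells and collagen, had lowest, median and highest levels of 1065, 1214 and 1465 CPM in knockout silica mice and 896, 935 and 1162 CPM in knockout air mice. Its wildtype levels were 1118, 1222 and 1339 CPM after silica and 1016, 1064 and 1243 CPM in air. Silica and air mice overlapped in both genotypes. The mean effect was 0.22 ± 0.05 log2 (adjusted p = 0.00851), with 0.31 ± 0.08 in knockout mice (adjusted p = 0.0192) and 0.13 ± 0.08 in wildtype mice (adjusted p = 0.451). The knockout call was lost without any of 5 of the 24 libraries, with the compared groups only (adjusted p = 0.131) and with all 70 libraries (0.388), and the average call with all 70 (0.237).

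Mfap4 encodes a microfibril-associated protein that binds elastin and collagen. Its lowest, median and highest levels at 1 day were 170, 232 and 430.0 CPM in knockout silica mice and 111, 159 and 231 CPM in knockout air mice. In wildtype mice they were 196, 229 and 245 CPM after silica and 161, 198 and 240.4 CPM in air. The knockout silica mice at 430 and 337 CPM lay above every other mouse of that time, and the remaining 4 lay within the range of the other groups. The log2 fold change was 0.46 ± 0.11 on average (adjusted p = 0.0101), 0.74 ± 0.16 in knockout mice (adjusted p = 0.00685) and 0.18 ± 0.16 in wildtype mice (adjusted p = 0.659). With the compared groups only the knockout call was lost (adjusted p = 0.0675).

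Timp2, an inhibitor that also takes part in activating pro-MMP2 on the cell surface, was the gene that fell. Its lowest, median and highest levels were 294, 341 and 358 CPM in knockout silica mice and 326, 379 and 409 CPM in knockout air mice, and 311, 349 and 370 CPM in wildtype silica mice and 355, 397 and 441 CPM in wildtype air mice. The mean effect was -0.18 ± 0.05 log2 (adjusted p = 0.0376), a call lost without any of 11 of the 24 libraries and with all 70 libraries in 1 model (adjusted p = 0.146). The 2 TIMPs thus moved in opposite directions, and Timp3 had a mean effect of -0.01 ± 0.07 (adjusted p = 0.964).

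On average over genotypes the structural genes moved little at 1 day. By genotype, the median silica effect of the 38 tested genes was 0.21 log2 in knockout mice, with 32 genes above 0. In wildtype mice it was -0.03, with 14 above 0. Knockout silica replicates 1 and 2 each held the highest value of their group in 14 of the 38 genes. Knockout air replicate 3, the library of 802478 counts, was the lowest of its group in 21. In air the median knockout over wildtype value was -0.13 log2, with 5 genes above 0. How far single mice carried the knockout median was not tested. The 5 fibril-forming collagens had mean silica effects of -0.20 to 0.21 log2 and the 4 basement membrane and multiplexin collagens 0.10 to 0.23, and none passed the test. The 5 genes of collagen VI and the fibril-associated collagens ran from -0.35 to 0.11, and the 3 crosslinking enzymes from 0.05 to 0.16, none past the test. Of 7 elastic fibre genes 1 passed, of 4 proteoglycans 1 and of 5 glycoproteins 1, those named above.

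**Figure D1:**
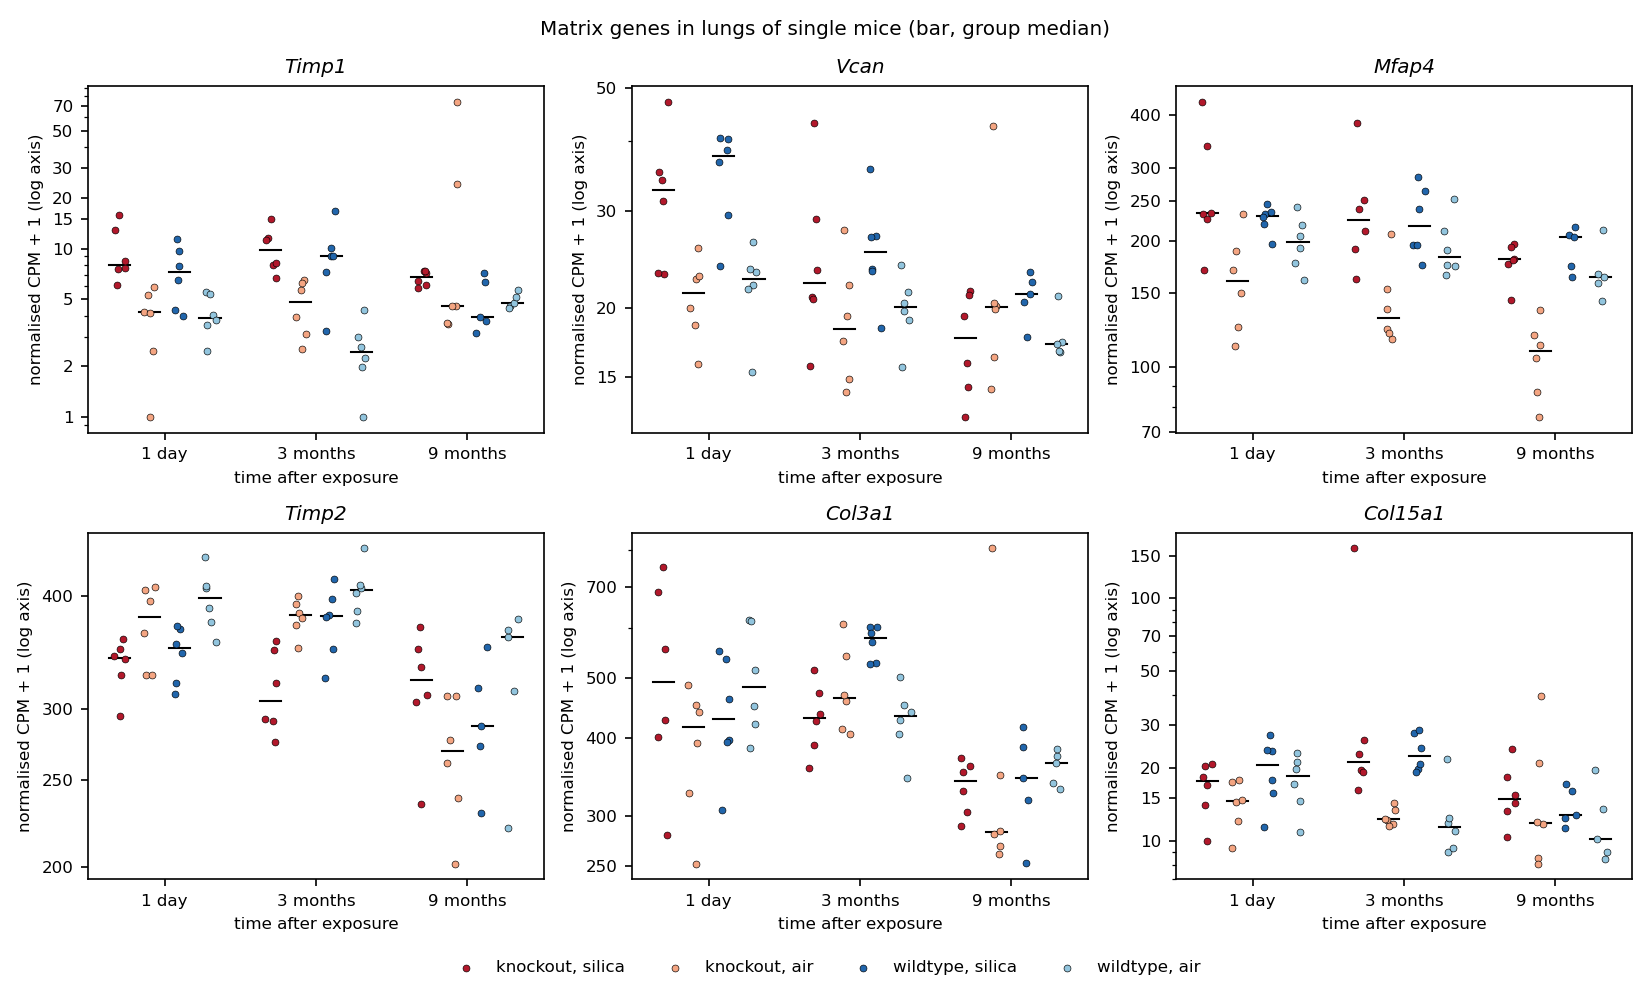
Normalised CPM plus 1 on a log axis (y) for 6 matrix genes in single mice, by time after exposure (x); each point is 1 mouse, colours are the 4 groups of each time and bars are group medians. Timp1 reached 73.4 CPM in 1 knockout air mouse of 9 months and Col15a1 160 CPM in 1 knockout silica mouse of 3 months, and Mfap4 was higher after silica in knockout mice at every time.

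At 3 months after exposure Timp1 was again higher and Timp2 again lower with silica, and Col15a1, Col18a1, Tnc, Thbs1 and Mmp14 rose as well. On average over genotypes 8 of 38 genes passed, 7 higher (Timp1, Col15a1, Tnc, Mfap4, Thbs1, Mmp14 and Col18a1) and 1 lower (Timp2), beside 7.95% of all 12647 genes tested. In knockout mice 6 passed, 5 higher and 1 lower (4.8% of all genes), and in wildtype mice 3, with 2 higher and 1 lower (2.96%). The median log2 fold change of the 38 genes was 0.12, against -0.01 over all genes.

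Timp1 had lowest, median and highest levels of 5.71, 8.74 and 13.9 CPM in knockout silica mice, against 1.54, 3.81 and 5.53 CPM in knockout air mice, with no overlap. In wildtype mice they were 2.25, 8.01 and 15.6 CPM after silica and 0, 1.42 and 3.33 CPM in air, with 1 silica mouse within the air range. The log2 fold change was 1.86 ± 0.26 on average (adjusted p = 5.45e-06), 1.35 ± 0.34 in knockout mice (adjusted p = 0.0172) and 2.36 ± 0.39 in wildtype mice (adjusted p = 0.000158). The difference between the 2 genotypes, -1.01 ± 0.54, did not pass (adjusted p = 0.68). The knockout call was lost without knockout air replicate 3 (adjusted p = 0.0516) and with all 70 libraries (0.195).

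Timp2 had lowest, median and highest levels of 274, 305 and 356 CPM in knockout silica mice and 350, 380.1 and 399 CPM in knockout air mice, so that only the top of the silica range reached the air range. Wildtype silica mice had 323, 379 and 417 CPM and wildtype air mice 373, 405 and 451 CPM. The log2 fold change was -0.20 ± 0.05 on average (adjusted p = 0.00743), -0.28 ± 0.07 in knockout mice (adjusted p = 0.0125) and -0.11 ± 0.07 in wildtype mice (adjusted p = 0.51). With all 70 libraries the average and the knockout call were lost (adjusted p = 0.0734 and 0.107). Timp3 had 871, 912 and 963 CPM in wildtype silica mice and 922, 1149 and 1336 CPM in wildtype air mice, a log2 fold change of -0.30 ± 0.08 (adjusted p = 0.0486), and the call was lost without any of 18 of the 24 libraries, with the size factors of DESeq2 (adjusted p = 0.0523) and with all 70 libraries (0.219). Exons of the antisense gene Syn3 overlap 21.3% of the Timp3 exon length. The strand setting of the counting is not given in the sources used here, so the Timp3 counts are uncertain.

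Col15a1 and Col18a1 encode multiplexin collagens of vascular and epithelial basement membranes, and Col18a1 is the source of endostatin. Col15a1 had lowest, median and highest levels of 15.2, 20.3 and 160 CPM in knockout silica mice, against 10.6, 11.3 and 13.4 CPM in knockout air mice, with no overlap. Wildtype silica mice had 18.3, 21.4 and 27.7 CPM and wildtype air mice 8.04, 10.4 and 20.8 CPM. Replicate 3 of the knockout silica mice held the value of 160 CPM, with the next at 25.1 CPM. The log2 fold change in knockout mice was 1.95 ± 0.44 (adjusted p = 0.00712) with it and 0.80 without it (adjusted p = 0.00672), and on average 1.45 ± 0.33 (adjusted p = 0.00344) with it and 0.88 without it (adjusted p = 2.97e-06). With the compared groups only the knockout call was lost (adjusted p = 0.0544).

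Col18a1 rose on average by 0.24 ± 0.07 log2 (adjusted p = 0.018), and by 0.20 without knockout silica replicate 3 (adjusted p = 0.0302). Its lowest, median and highest levels were 69.1, 81.8 and 106.5 CPM in knockout silica mice and 63.0, 74.1 and 82.6 CPM in knockout air mice. In wildtype mice silica and air did not overlap, with 74.8, 79.55 and 93.8 CPM after silica and 56.2, 67.2 and 74.6 CPM in air.

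Of the matricellular genes, Tnc encodes tenascin-C and Thbs1 thrombospondin-1, which can activate latent TGF-beta. Tnc had lowest, median and highest levels of 30.1, 41.4 and 112 CPM in knockout silica mice and 24.9, 28.8 and 34.6 CPM in knockout air mice, and 28.4, 35.3 and 44.0 CPM in wildtype silica mice and 20.8, 24.0 and 32.3 CPM in wildtype air mice. Thbs1 had 229, 335 and 966 CPM in knockout silica mice and 151, 190 and 341 CPM in knockout air mice, and 172, 251 and 417 CPM in wildtype silica mice and 191, 209 and 310.1 CPM in wildtype air mice. Both genes had their highest value in knockout silica replicate 3, and silica and air mice overlapped.

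The log2 fold change of Tnc was 0.65 ± 0.16 on average (adjusted p = 0.00574) and 0.83 ± 0.22 in knockout mice (adjusted p = 0.0189). Without replicate 3 it was 0.45 on average (adjusted p = 0.00107) and 0.43 in knockout mice (adjusted p = 0.0681). Thbs1 had 0.58 ± 0.19 on average (adjusted p = 0.0492) and 0.95 ± 0.26 in knockout mice (adjusted p = 0.0305), and neither call held without that mouse, at 0.35 (adjusted p = 0.0986) and 0.49 (adjusted p = 0.169). The average Thbs1 call was lost without any of 15 of the 24 libraries, in DESeq2 (adjusted p = 0.0869) and in voom (0.119), and the knockout call in DESeq2 (0.0535), in voom (0.146) and with the compared groups only (0.088). The knockout call of Tnc was lost in voom (0.0911), with the compared groups only (0.0755) and with all 70 libraries (0.0557). That mouse also had the highest smooth muscle and pericyte marker sum of its group, 1565 CPM against 985 to 1237 CPM in the other 5, and the highest macrophage marker sum, 5500 CPM against 4059 to 4564 CPM. The part of these in its matrix levels was not tested.

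Mfap4 rose again in knockout mice, with lowest, median and highest levels of 162, 224 and 382 CPM after silica and 116, 130 and 207 CPM in air. Wildtype mice had 174, 217 and 284 CPM after silica and 165, 182 and 251 CPM in air. Its log2 fold change was 0.76 ± 0.16 in knockout mice (adjusted p = 0.00319), 0.22 ± 0.16 in wildtype mice (adjusted p = 0.615) and 0.49 ± 0.11 on average (adjusted p = 0.00386). Without knockout silica replicate 3 it was 0.575 in knockout mice (adjusted p = 0.00672) and 0.398 on average (adjusted p = 0.00287).

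Col3a1, the chain of type III collagen, was the 1 fibril collagen gene past the test, and that in wildtype mice. It had lowest, median and highest levels of 525, 579 and 603 CPM in wildtype silica mice, above all wildtype air mice at 345, 434 and 500.2 CPM. Knockout silica mice had 358, 431 and 514 CPM and knockout air mice 405, 463 and 608 CPM. In log2 units its fold change was 0.42 ± 0.09 in wildtype mice (adjusted p = 0.00614) and -0.16 ± 0.09 in knockout mice (adjusted p = 0.404). The wildtype call was lost with all 70 libraries in 1 model (0.41, adjusted p = 0.33). The difference between the genotypes, -0.57 ± 0.13, did not pass over all genes (adjusted p = 0.342).

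Mmp14, the membrane-bound metalloproteinase that activates pro-MMP2, had lowest, median and highest levels of 44.9, 56.8 and 89.7 CPM in knockout silica mice and 43.4, 51.2 and 60.1 CPM in knockout air mice. In wildtype mice they were 50.9, 58.8 and 72.9 CPM after silica and 38.2, 48.9 and 52.2 CPM in air. The groups overlapped in both genotypes, and the mean log2 fold change was 0.31 ± 0.09 (adjusted p = 0.0241). The call was lost in voom (adjusted p = 0.0514), with all 70 libraries (0.0634) and without wildtype silica replicate 6 (0.0519). Without knockout silica replicate 3 the value was 0.232 (adjusted p = 0.04).

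The other 30 genes did not pass on average at 3 months. The 5 fibril-forming collagens had mean effects of -0.08 to 0.22 log2, the 5 genes of collagen VI and the fibril-associated collagens -0.01 to 0.22, the 3 crosslinking enzymes 0.02 to 0.25 and the 4 proteoglycans -0.14 to 0.34. Vcan, raised at 1 day, had 0.34 ± 0.13 (adjusted p = 0.127). Without knockout silica replicate 3, 11 genes passed on average, 7 of them the same, with Vcan, Col14a1, Sparc and Timp3 added and Thbs1 lost. The share of all genes passing without that mouse is not given here.

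**Figure D2:**
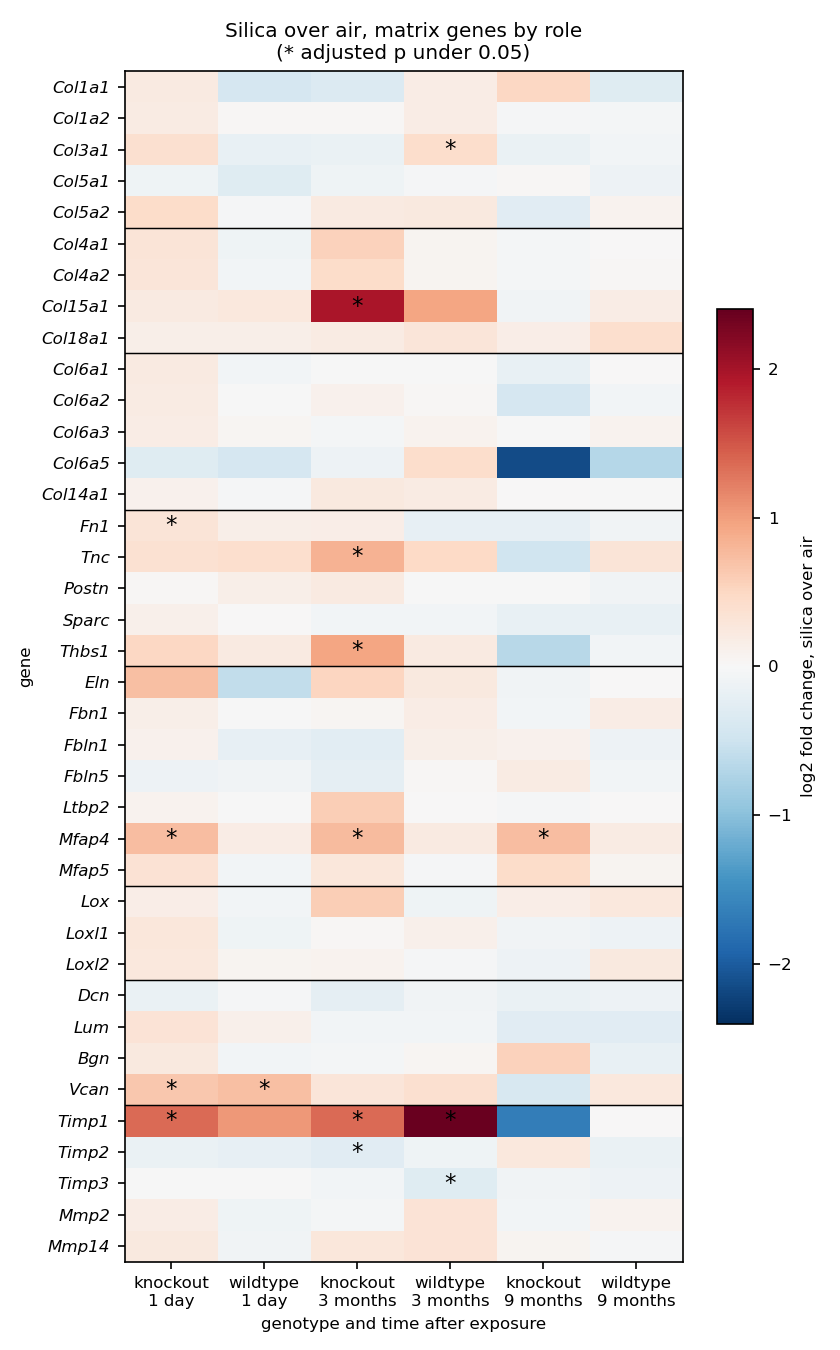
Log2 fold changes of silica over air (colour) for the 38 tested genes (rows, grouped by role) in knockout and wildtype mice at each time (columns); a star marks an adjusted p under 0.05 in edgeR. The stars number 4 and 1 at 1 day, 6 and 3 at 3 months and 1 and 0 at 9 months in knockout and wildtype mice, and most collagen rows are pale.

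At 9 months after exposure 1 of 38 genes differed with silica, Mfap4, on average and in knockout mice. Its lowest, median and highest levels were 144, 180 and 196 CPM in the 6 knockout silica mice, all above the 6 knockout air mice at 74.8, 108 and 136 CPM. The 5 wildtype silica mice ran from 163 to 215 CPM and the 5 wildtype air mice from 143 to 212 CPM. Its log2 fold change was 0.75 ± 0.12 in knockout mice (adjusted p = 0.00365, 0.179% of all 12826 genes passed), 0.19 ± 0.13 in wildtype mice (adjusted p = 0.821) and 0.47 ± 0.09 on average (adjusted p = 0.0123, 0.242% of all genes passed). In wildtype mice 0 of the 38 genes passed in edgeR, with 0.0234% of all genes passing. There 1 gene had an unadjusted p under 0.05, and DESeq2 and voom called 0.

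Timp1 no longer separated the groups. It had 4.80 to 6.39 CPM in knockout silica mice and 2.59, 2.64, 3.54, 3.54, 23.1 and 73.4 CPM in knockout air mice, the last 2 in replicates 5 and 4. Wildtype silica mice had 2.16, 2.74, 2.95, 5.35 and 6.21 CPM and wildtype air mice 3.43 to 4.65 CPM. In log2 units its fold change was -1.65 ± 0.61 in knockout mice (adjusted p = 0.319) and 0.00 in wildtype mice (adjusted p = 0.9995). No standard error is given for the wildtype value, because the formula used is unstable at a fold change this close to 0. Without the 3 air mice of high Chil3 it was 0.92 ± 0.28 in knockout mice (adjusted p = 0.114) and 0.07 ± 0.31 in wildtype mice (adjusted p = 0.958).

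The silica effect on Timp1 was lower at 9 months than at 3 months, by a difference of -2.68 ± 0.58 log2 (adjusted p = 0.0179), the 1 gene of 38 past the test, beside 0.732% of all 13252 genes tested in the model of all times. That call was lost without wildtype air replicate 5 (-2.65, adjusted p = 0.0962) and without all 3 air mice (-1.37 ± 0.40, adjusted p = 0.395). Col15a1 and Thbs1 had differences of -1.40 ± 0.40 and -0.94 ± 0.27, each with an adjusted p of 0.0769. Between 3 months and 1 day the silica effect differed for 0 of 38 genes in edgeR, beside 0.0755% of all genes, with 1 gene at an unadjusted p under 0.05 and 0 called by DESeq2 or voom.

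Without the 3 air mice of high Chil3, 7 genes passed on average at 9 months, beside 497 of all 12839 genes tested. Mfap4 (0.51 ± 0.08, adjusted p = 0.000149), the gelatinase Mmp2 (0.34 ± 0.07, adjusted p = 0.00338), the crosslinker Lox (0.28 ± 0.08, adjusted p = 0.028), Col18a1 (0.30 ± 0.08, adjusted p = 0.0335) and Col15a1 (0.57 ± 0.16, adjusted p = 0.0424) were higher after silica. Timp3 (-0.23 ± 0.06, adjusted p = 0.0205) and Sparc (-0.20 ± 0.06, adjusted p = 0.0492) were lower. In knockout mice 3 genes passed then, beside 218 of all 12839 genes tested. They were Mfap4 (0.85 ± 0.12, adjusted p = 4.27e-05), the small proteoglycan Bgn (0.47 ± 0.12, adjusted p = 0.0261) and Col1a1 (0.66 ± 0.17, adjusted p = 0.0373). The 3 air mice were left out after their values had been seen. No silica mouse was left out, although wildtype silica replicate 5 had 2464 CPM of Chil3.

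Loss of pendrin by itself changed no matrix gene past the test in edgeR. In knockout over wildtype mice 0 of 38 genes passed in air at 1 day (0.0478% of all genes passed; 7 at an unadjusted p under 0.05; DESeq2 0, voom 2) and 0 in silica at 1 day (0.00796% of all genes; 2 at an unadjusted p under 0.05; DESeq2 0, voom 0). At 3 months 0 passed in air (0.142%; 5 unadjusted; DESeq2 0, voom 1) and 0 in silica (0.174%; 11 unadjusted; DESeq2 3, voom 3). At 9 months 0 passed in air (0.0156%; 8 unadjusted; DESeq2 1, voom 1) and 0 in silica (0%; 1 unadjusted; DESeq2 0, voom 0). The shares of all genes are those of edgeR. Over all genes DESeq2 and voom called 24 and 181 in air at 1 day and 14 and 5 in silica. At 3 months they called 76 and 108 in air and 37 and 30 in silica. At 9 months they called 25 and 3 in air and 0 and 1 in silica.

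The 3 genes that DESeq2 and voom called in silica at 3 months were the same, Col1a1, Col3a1 and Timp2, all lower in knockout mice. In edgeR Col3a1 had a log2 fold change of -0.40 ± 0.09 (adjusted p = 0.0792), Col1a1, the main chain of type I collagen, -0.49 ± 0.13 (adjusted p = 0.174) and Timp2 -0.26 ± 0.07 (adjusted p = 0.174). Col1a1 had lowest, median and highest levels of 108, 145 and 163 CPM in knockout silica mice, below all wildtype silica mice at 173, 199 and 218 CPM.

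Mfap4 in air was lower in knockout mice at 9 months by both DESeq2 and voom, and in edgeR it missed the threshold with -0.67 ± 0.13 (adjusted p = 0.067). Without the 3 air mice it passed in edgeR, at -0.79 ± 0.13 (adjusted p = 0.00791). In air it had -0.30 ± 0.16 at 1 day (adjusted p = 0.549) and -0.45 ± 0.16 at 3 months (adjusted p = 0.268). After silica the knockout over wildtype values were 0.26 ± 0.16, 0.10 ± 0.16 and -0.11 ± 0.12 at the 3 times. These comparisons share their mice with the silica effects of Mfap4 given above, and only the 9-month value in air passed in any tool.

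Whether the silica effect differed between genotypes was tested directly. At each time 0 of 38 genes passed in edgeR, with 0% of all genes passing, and DESeq2 and voom called 0 of the 38 at each time. At an unadjusted p under 0.05 there were 9 genes at 1 day, all with a positive difference of knockout minus wildtype mice, 7 at 3 months, 3 of them positive, and 4 at 9 months, all positive. The share of all genes at that cutoff is not given, here or for the other comparisons. Mfap4 and Col1a1 were among them at each time. Mfap4 had differences of 0.56 ± 0.23, 0.54 ± 0.22 and 0.56 ± 0.18 (adjusted p = 0.838, 0.579 and 0.533), none past the test. The largest was Eln, the gene of elastin, at 1 day with 1.31 ± 0.47 (adjusted p = 0.751). Knockout silica mice of 1 day were widely spread in Eln. Replicates 1 and 2 had log2 deviations of 1.79 and 1.14 from the group mean, and the others -1.12 to -0.392. Col1a1 had 0.61 ± 0.27, -0.51 ± 0.18 and 0.80 ± 0.30 (adjusted p = 0.861, 0.508 and 0.573), also none past the test.

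More matrix genes passed between 9 and 3 months in air than with silica at any time, but so did more of all genes. With all mice the largest silica count in edgeR was 8 of 38 at 3 months, on average over genotypes, beside 7.95% of all genes. The silica counts came from models fitted per time, and the counts between times from the model of all times. The numbers of matrix genes are therefore not directly comparable. In air mice, averaged over genotypes, 20 of 38 genes passed between 9 and 3 months, 18 lower and 2 higher, beside 29.2% of all genes (13.5% lower and 15.7% higher). The median log2 fold change of the 38 genes was -0.26, against 0.02 over all genes. Age, housing and any handling that went with the time cannot be told apart here. Between 3 months and 1 day 0 passed in edgeR, beside 0.113% of all genes, with 7 at an unadjusted p under 0.05, 0 called by DESeq2 and 1 by voom (Tnc, lower). Voom called 132 of all genes there.

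Of the 5 fibril-forming collagens 3 fell. Col1a1 had lowest, median and highest levels of 52.9, 67.1 and 139 CPM in knockout air mice of 9 months, against 118, 169 and 246 CPM in those of 3 months. In wildtype air mice they were 86.9, 120 and 148 CPM at 9 months and 134, 183 and 213 CPM at 3 months. Its log2 fold change was -0.86 ± 0.14 (adjusted p = 2.31e-06). Col5a1, which sets fibril diameter, had -0.54 ± 0.08 (adjusted p = 5.95e-07) and Col1a2 -0.52 ± 0.08 (adjusted p = 1.12e-06). Col3a1 and Col5a2 did not pass, at -0.31 ± 0.13 and -0.23 ± 0.11 (adjusted p = 0.0601 and 0.0926).

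Of the basement membrane and multiplexin collagens 3 of 4 fell, Col18a1 at -0.49 ± 0.08 (adjusted p = 1.78e-06), Col4a1 at -0.37 ± 0.11 (adjusted p = 0.00624) and Col4a2 at -0.36 ± 0.09 (adjusted p = 0.00144). Of the collagen VI group Col6a3 had the smallest adjusted p of all 38 genes, with -0.44 ± 0.06 (adjusted p = 1.41e-07), and Col6a1 fell too (-0.34 ± 0.07, adjusted p = 0.000116). Of the crosslinking enzymes Lox and Loxl2 fell (-0.56 ± 0.13 and -0.55 ± 0.16, adjusted p = 0.000512 and 0.00605). Of 7 elastic fibre genes 4 fell, among them the fibrillin Fbn1 with -0.39 ± 0.08 (adjusted p = 9.67e-05) and Ltbp2 with -0.47 ± 0.13 (adjusted p = 0.00415). Gm9913 overlaps 20.1% of the Fbn1 exon length and D030025P21Rik 9.34% of that of Ltbp2, both on the other strand. Of 5 glycoproteins Postn and Fn1 fell, Postn at -0.46 ± 0.08 (adjusted p = 1.25e-05) and Fn1 at -0.29 ± 0.10 (adjusted p = 0.0262), a call lost without any of 4 of the 70 libraries, of 4 proteoglycans Bgn (-0.27 ± 0.09, adjusted p = 0.0123), and of 5 protease genes Timp2 (-0.41 ± 0.07, adjusted p = 3.09e-06).

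Of the 2 genes that rose, Timp1 had a log2 fold change of 1.803 ± 0.45 (adjusted p = 0.00124) and Col6a5, a collagen VI chain, 1.47 ± 0.36 (adjusted p = 0.00108). In wildtype air mice Timp1 was 3.43 to 4.65 CPM at 9 months, above the 0 to 3.33 CPM of all 6 mice at 3 months, while in knockout air mice it was 2.59 to 73.4 CPM at 9 months and 1.54 to 5.53 CPM at 3 months, with overlap. Col6a5 was at 94.4, 23.5 and 21.4 CPM in the 3 mice of high Chil3 and at 1.48 to 6.64 CPM in the other 8 air mice of 9 months. Without the 3 mice Timp1 had 0.49 ± 0.33 (adjusted p = 0.343) and Col6a5 -0.14 ± 0.23 (adjusted p = 0.765). Then 20 genes passed, all lower, beside 2187 of all 13305 genes tested. Of the 20, 15 were also among the 18 that fell with all mice. Col3a1, Col5a2, Col6a2, Mmp2 and Mmp14 were added, and Mfap4 (-0.36 ± 0.13, adjusted p = 0.0511), Mfap5 (-0.43, adjusted p = 0.0701) and Bgn (-0.19, adjusted p = 0.132) were lost.

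**Figure D3:**
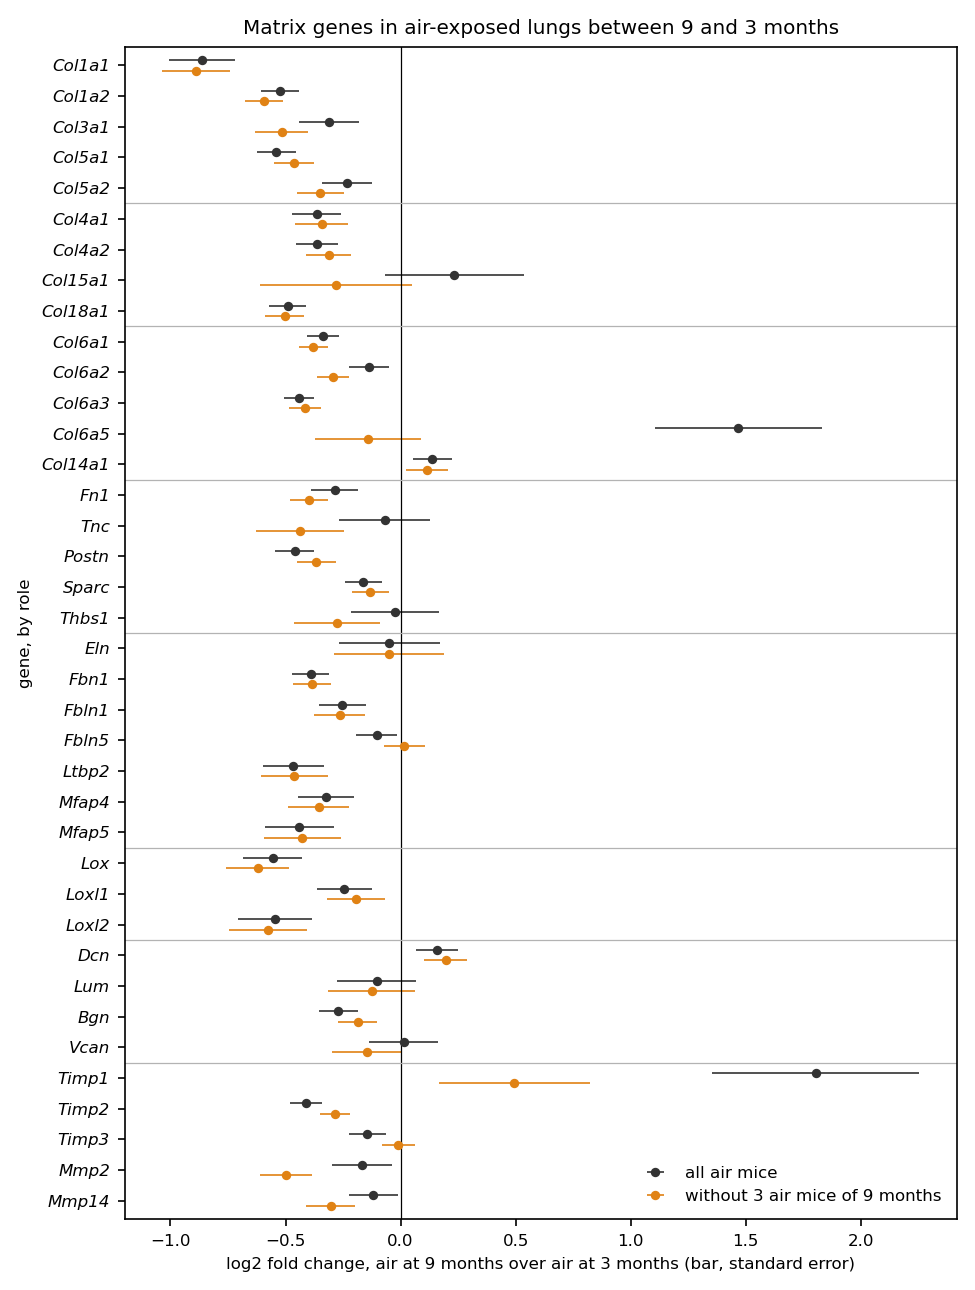
Log2 fold change of air mice at 9 months over air mice at 3 months (x, bars are standard errors) for the 38 tested genes by role (y), with all 23 air mice and without 3 air mice of 9 months. Most points lie left of 0 in both, and Timp1 and Col6a5 move from 1.803 and 1.47 to 0.49 and -0.14 without the 3 mice.

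The mice that stood apart at 9 months differed in which matrix genes they raised. In the library labelled knockout air replicate 4, Timp1 was 73.4, Col3a1 805, Fn1 1888, Tnc 81.4 and Thbs1 571 CPM, against 2.59 to 23.1, 260 to 384, 736 to 1041, 17.1 to 38.9 and 115 to 283 CPM in the other 10 air mice. Its Col1a1 level, 139 CPM, lay within their range of 52.9 to 148 CPM, but above the other knockout air mice at 52.9 to 83.5 CPM. Wildtype air replicate 5, the other mouse of such a high Chil3 level, had 4.65 CPM of Timp1 and 330.4 CPM of Col3a1 by contrast, and the lowest value of its group in 20 of the 38 genes.

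**Figure D4:**
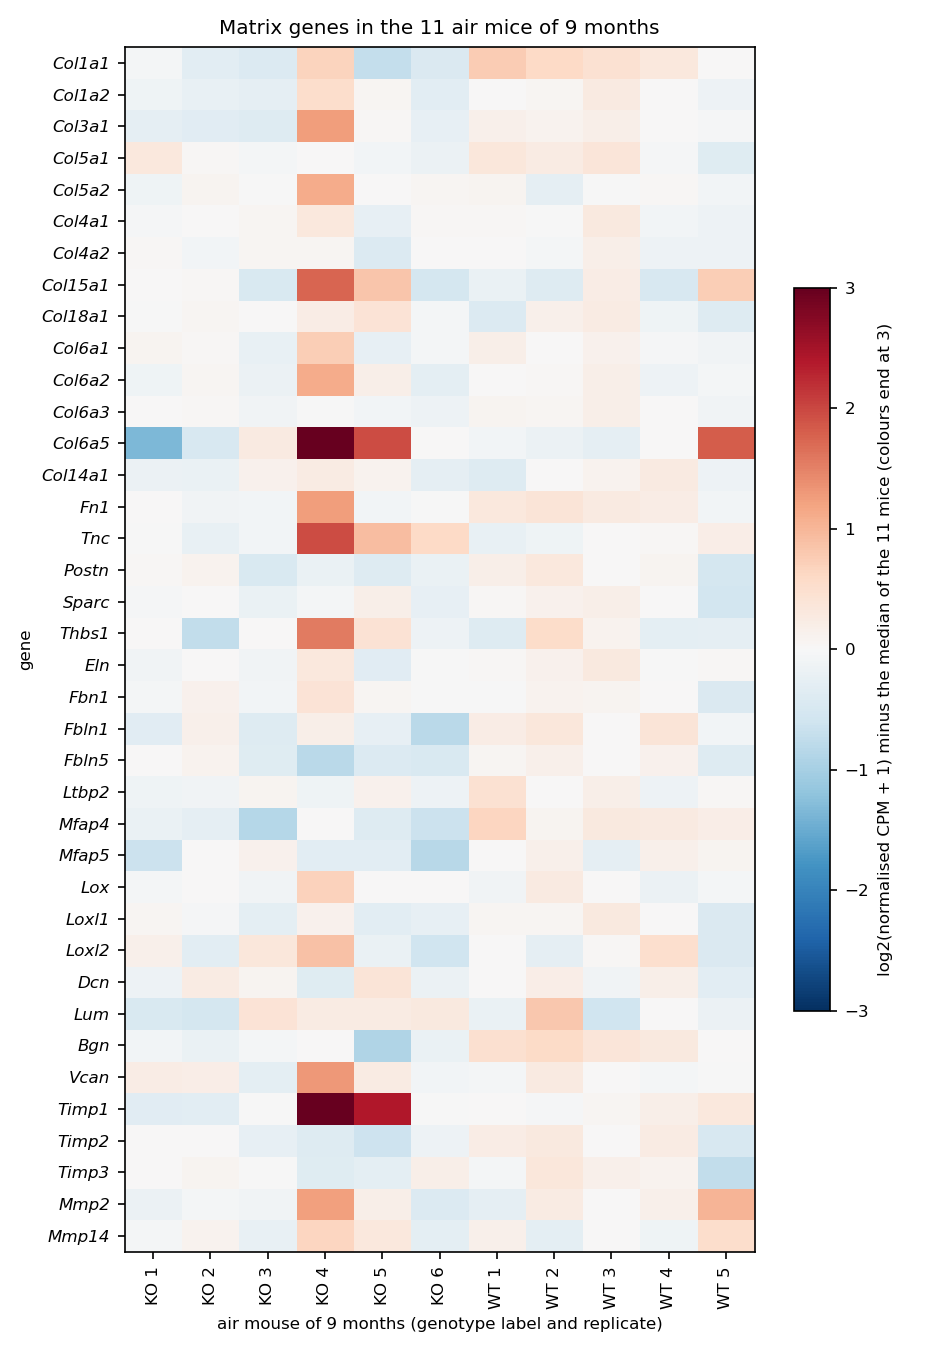
Log2 of normalised CPM plus 1 minus the median of the 11 air mice of 9 months (colour, ending at 3) for the 38 tested genes (rows) in each mouse (columns, knockout then wildtype, by replicate). Knockout 4 is the highest mouse in 19 of the 38 rows.

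Other genes of matrix production were measured in lists chosen for their function, and their counts stand beside 4.59% of all genes passing at 1 day, 7.95% at 3 months and 0.242% at 9 months. On average over genotypes silica raised 8 of 28 tested matrix proteases and inhibitors outside the 39 genes at 3 months and lowered 1. Mmp12, the macrophage elastase, had a log2 fold change of 4.05 ± 0.35 (adjusted p = 3.84e-10), Ctsk, the collagen-cutting cathepsin K, 2.66 ± 0.11 (adjusted p = 3.43e-18), and Mmp19 0.87 ± 0.12 (adjusted p = 2.53e-06). At 1 day 5 of 26 rose, with Mmp12 at 1.99 ± 0.27 (adjusted p = 2.24e-06) and Ctsk at 1.30 ± 0.13 (adjusted p = 3.39e-09), and at 9 months 0 of 28 passed. At 9 months the sum of this list reached 3638 CPM in wildtype air mice and 4303 CPM in knockout air mice, against medians of 1994 and 2078 CPM. The lists were not counted without the 3 air mice of high Chil3. Spp1 (osteopontin), a matricellular protein, rose by 0.97 ± 0.09 at 1 day (adjusted p = 1.08e-09) and 1.68 ± 0.12 at 3 months (adjusted p = 1.63e-11). Of its list of other elastic fibre and matricellular genes 4 of 28 rose and 1 fell at 1 day, and 5 rose and 2 fell at 3 months.

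Of the TGF-beta signalling genes 2 of 26 rose and 3 fell at 1 day, and 2 rose and 7 fell at 3 months. The integrin chain Itgb6, part of the receptor that activates latent TGF-beta, rose by 0.76 ± 0.13 at 1 day (adjusted p = 0.000126). At 3 months the co-receptor Tgfbr3 fell, at -0.41 ± 0.06 (adjusted p = 1.84e-05) and the endothelial receptor Acvrl1 at -0.25 ± 0.05 (adjusted p = 0.00188). Of 25 enzymes and chaperones of collagen synthesis 1 rose at 1 day (P4hb, 0.17 ± 0.04, adjusted p = 0.0142), and at 3 months Ppib rose (0.16 ± 0.05, adjusted p = 0.047) and Plod2 fell (-0.25 ± 0.07, adjusted p = 0.0236). Of 11 other collagens Col12a1 fell at both times, at -0.21 ± 0.06 (adjusted p = 0.0411) and -0.42 ± 0.06 (adjusted p = 1.72e-05). Of 21 basement membrane genes 1 rose at 3 months, Lama3 (0.16 ± 0.05, adjusted p = 0.0318). Of 19 other proteoglycan and hyaluronan genes 3 rose and 0 fell at 1 day, and 2 rose and 3 fell at 3 months, led by the hyaluronan synthase Has3 with 2.08 ± 0.17 (adjusted p = 3.45e-11) and 1.79 ± 0.17 (adjusted p = 3.58e-09).

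Between 9 and 3 months in air, where 13.5% of all genes fell and 15.7% rose, 11 of the 21 basement membrane genes fell and 0 rose, among them Nid1 (-0.64 ± 0.075, adjusted p = 5.82e-10). Of the other lists 10 of 27 TGF-beta signalling genes fell and 5 rose, 6 of 25 collagen synthesis genes fell and 3 rose, 6 of 13 other collagens fell and 2 rose, 13 of 29 proteases and inhibitors rose and 5 fell, 5 of 28 elastic fibre and matricellular genes fell and 4 rose, and 7 of 20 proteoglycan and hyaluronan genes fell and 4 rose.

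Markers of cell types moved with these results, beside the same shares of all genes. On average over genotypes silica raised 8 of 11 tested macrophage markers at 1 day and 9 of 12 at 3 months, and 4 and 1 of 6 neutrophil markers. At 3 months the macrophage sum had a range of 4059 to 5500 CPM in knockout silica mice, 2863 to 3605 CPM in knockout air mice, 3295 to 4690 CPM in wildtype silica mice and 2803 to 3099 CPM in wildtype air mice. Of 12 fibroblast markers 1 rose at 1 day and 2 fell at 3 months, and of 10 smooth muscle and pericyte markers 1 fell at 1 day and 0 passed at 3 months. Of 8 endothelial markers 1 and 2 fell, of 8 alveolar epithelial markers 1 rose and 1 fell at 1 day and 1 rose and 2 fell at 3 months, and of 6 mesothelial markers 0 passed at either time. Cartilage markers, 9 in the file, summed to at most 9.51 CPM in any mouse of these times, and 0 of them were tested. Their part in the matrix results was not tested.

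In air at 9 months over 3 months, 6 of 12 fibroblast markers, 6 of 10 smooth muscle and pericyte markers and 7 of 8 endothelial markers fell, with 0 higher, while 12 of 12 macrophage, 6 of 6 neutrophil and 6 of 6 mesothelial markers rose. Of 8 alveolar epithelial markers 1 fell, and the 1 cartilage marker tested did not pass. The fibroblast sum ranged from 2122 to 3912 CPM at 9 months and from 3642 to 4247 CPM at 3 months in knockout air mice, and from 2156 to 3594 CPM and 3745 to 4077 CPM in wildtype air mice. The macrophage sum at 9 months had lowest, median and highest values of 3681, 4782 and 9480 CPM in knockout air mice. In wildtype air mice they were 3340, 3903 and 10810 CPM. At 3 months the highest were 3605 and 3099 CPM. The marker counts include the 3 air mice of high Chil3 and were not made without them. The part of these markers in the fall of the matrix genes was not tested.

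Some matrix genes varied together from mouse to mouse within groups. Over 70 mice, as deviations of log2(CPM + 1) from the group mean, Col4a1 and Col4a2 had a Pearson r of 0.95 and a Spearman rho of 0.875. The 2 genes lie head to head on chromosome 8 of GRCm38, Col4a1 on the minus strand from 11198423 to 11312826 and Col4a2 on the plus strand from 11312805 to 11449287, and their products assemble into 1 collagen IV molecule. Less than 1% of the exon length of either overlaps another gene. Of 9 pairs computed, Col1a1 with Col3a1 had r = 0.78 and rho = 0.73, Eln with Fbn1 r = 0.763 and rho = 0.689, Col6a1 with Col6a2 r = 0.724 and rho = 0.666, Col3a1 with Tnc r = 0.65 and rho = 0.508, Col1a1 with Col1a2 r = 0.631 and rho = 0.554, and Col3a1 with Sparc r = 0.504 and rho = 0.639.

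Each of these 7 pairs had a two-sided permutation p of r of 1e-05, the smallest that 100000 permutations within groups can give, except Col3a1 with Tnc at 2e-05, and an adjusted p over the 9 pairs of at most 2.57e-05. For rho the raw p ran from 1e-05 to 8e-05 and the adjusted p from 1.8e-05 to 0.000103. Without the 2 mice farthest from the median of the first gene, r ran from 0.522 to 0.9. Fn1 with Timp1 had r = 0.513 and rho = 0.377 (permutation p = 0.00199 and 0.00282, adjusted p = 0.00224 and 0.00317), and r = 0.267 without 2 mice, so that the relation rests largely on them. Col1a1 with Timp1 had r = 0.278 and rho = 0.149 (permutation p = 0.0575 and 0.259, adjusted p the same), and r = 0.154 without 2 mice. Within the mice of 1 day, 3 months and 9 months alone this pair had r of 0.48, -0.0728 and 0.295.

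**Figure D5:**
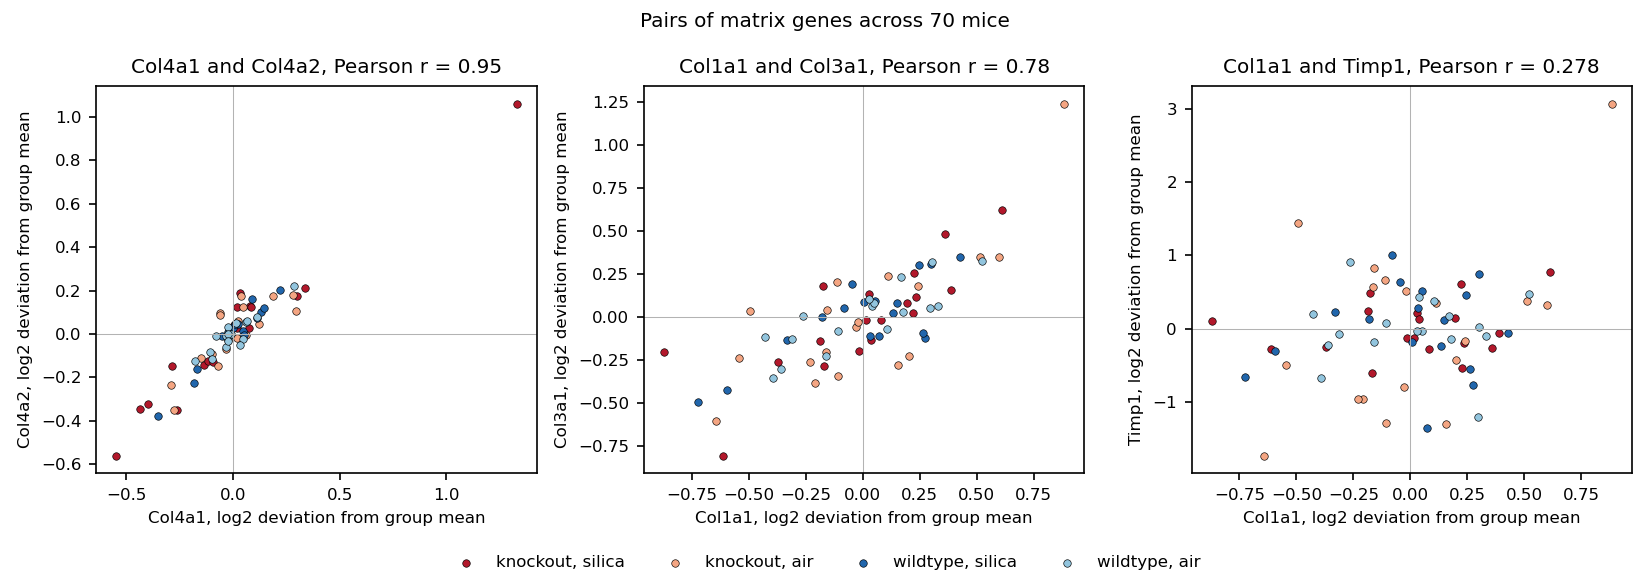
Deviations of log2(CPM + 1) from the group mean for 3 pairs of matrix genes, 1 point for each of the 70 mice, coloured by genotype and exposure. Col4a1 and Col4a2 lie along a line (r = 0.95), Col1a1 and Col3a1 spread more (r = 0.78), and Timp1 varies with little relation to Col1a1 (r = 0.278), with 1 knockout air mouse far from the rest.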

How the data were processed

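Lung RNA of 70 mice was measured by RNA-seq after ribosomal RNA depletion with a stranded kit, per the labels' protocols. The authors deposited whole-number counts of reads per gene. The submitters' processing notes name bcl2fastq 2.19, Trimmomatic 0.35, HISAT2 2.1.0, Cufflinks, SAMtools 1.8, HTSeq 0.11.2 and build mm10. The strand setting and annotation are not given in the sources used here. Of 24439 rows 16 repeated ones were dropped.

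Library totals of 802478 to 5596318 counts limit precision, and the tests set group differences against the spread between mice within groups. Counts were tested with edgeR 4.0.16 in R 4.3.3: genes with low counts were removed by filterByExpr, libraries scaled by TMM and a quasi-likelihood model of 4 groups fitted per time, or of 12 groups for comparisons across times. Benjamini-Hochberg adjustment ran over all genes tested, with a threshold of 0.05. Standard errors are the log2 fold change divided by the square root of F, which is unreliable where the fold change is very close to 0. DESeq2 1.42.0, voom in limma 3.58.1, other samples in the fit, no filter and leaving out each library were alternatives. The model code was tested on simulated data.

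The genes described and all lists were chosen with earlier results of these data known. Levels are given for the 12 genes past the threshold in any silica, genotype or interaction comparison. Genes past it only between times are given by role with examples of smallest p, and from each other list at most 4 genes of smallest adjusted p. Normalised CPM used TMM factors of all 70 libraries. Replicate numbers follow deposit order only. Whether mice shared litters or cages is not given, and the tests treated each mouse as independent. Some results of the other gene lists are not reported here.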

Additional observations from a re-analysis of the deposited data

Results flagged for a closer look

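Of 144 groups of 5 or 6 mice, for 12 genes at each time, exposure and genotype, 14 held a mouse that stood apart from the rest by Dixon's criterion, and chance gives about 1 in 20. Of the 14, 6 were in the library labelled knockout air replicate 4 of 9 months, with Timp1 at 73.39 (next mouse 23.07), Col3a1 at 804.6 (347.8), Fn1 at 1888 (790.5), Thbs1 at 571 (261.4), Tnc at 81.44 (38.9) and Vcan at 41.62 CPM (19.45). Knockout silica replicate 3 of 3 months had 4, Col15a1 at 159.6 (25.1), Fn1 at 1778 (1153), Thbs1 at 966.3 (430.8) and Tnc at 112 CPM (47.55).

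The remaining 4 were in separate mice. Col15a1 was 20.75 CPM in wildtype air replicate 4 of 3 months (11.4). Thbs1 was 498.5 CPM in knockout silica replicate 4 of 1 day (292.2). Timp3 was 1549 CPM in knockout air replicate 3 of 1 day (1133), and Vcan was 20.03 CPM in wildtype air replicate 2 of 9 months (16.37).

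The silica effect on Timp1 differed between 9 and 3 months by -2.68 log2 in edgeR (adjusted p = 0.0179), and by -1.37 without 3 air mice of 9 months (adjusted p = 0.395).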

How the results depend on the processing

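Of 150 counts of matrix genes past the threshold under alternatives, 121 stayed within 1.5 times and 29 moved. Of 314 log2 fold changes of single genes, 277 kept their direction and side of the threshold, 36 no longer passed and 1 reversed. The causes were not tested. Brackets below give how many of all genes passed in the same fit. For silica in wildtype mice at 1 day voom gave 4 (761) and a fit of the compared groups only 5 (641), against 298 of all genes in the main fit. In knockout mice at 1 day the compared groups only gave 0 (122) and all 70 libraries 1 (184), against 242 in the main fit. On average all 70 libraries gave 2 (519), against 576. For wildtype mice at 3 months voom gave 5 (573), the compared groups only 7 (520) and all 70 libraries 1 (190), against 374 in the main fit. For knockout mice the compared groups only gave 3 (319), against 607. At 9 months knockout mice gave 2 in DESeq2 (54), 2 in voom (143), 4 with all 70 libraries (147) and 3 without 3 air mice (218), against 23 in the main fit. The average gave 2 in voom (261), 2 with all 70 libraries (129) and 7 without the 3 mice (497), against 31. Knockout over wildtype gave 2 in air at 1 day in voom (181) and with the compared groups only (125), against 6 in the main fit. It gave 1 in air at 3 months in voom (108), against 18, and 3 in silica at 3 months in DESeq2 (37) and voom (30), against 22. In air at 9 months it gave 1 in DESeq2 (25), voom (3), without a low-count filter (3) and without the 3 mice (4). With all 70 libraries it gave 2 (78), against 2 of all genes in the main fit. Air at 3 months over 1 day gave 1 in voom (132), against 15 in the main fit. The silica effect at 9 minus 3 months gave 0 in voom (0) and without the 3 mice (0), against 97. The reversed value was Col6a5 in air at 9 over 3 months, -0.141 without the 3 mice. Leaving them out was chosen after seeing the data.

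Leaving out 1 library at a time, the counts ran from 1 to 2 in wildtype, 1 to 5 in knockout and 4 to 6 on average for silica at 1 day, 2 to 8, 4 to 8 and 6 to 11 at 3 months, and 0 to 0, 1 to 2 and 1 to 1 at 9 months. Knockout over wildtype ran from 0 to 1 in air and 0 to 3 in silica at 3 months and 0 to 1 in air at 9 months. Air at 9 over 3 months ran from 18 to 25 and the silica effect at 9 minus 3 months from 0 to 3. The other 8 counts were 0 throughout. How many of all genes passed in these fits is not given here.

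Within the mice of 1 day Col1a1 with Timp1 had r = 0.48. Within those of 3 months r was -0.0728 for Col1a1 with Timp1, 0.337 for Col3a1 with Sparc, 0.142 for Col3a1 with Tnc and 0.318 for Fn1 with Timp1, and within those of 9 months 0.308 for Col3a1 with Sparc, 0.483 for Eln with Fbn1 and 0.643 for Fn1 with Timp1. No paired analysis was possible because the labels' replicate numbers only follow deposit order. Depth limits Timp1, Col6a5 and Cthrc1 most.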
